A study of Mus musculus with 12 samples.

Results

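Endothelial and angiogenic genes of the mouse epididymis are described here as a set of 38 genes, of 55536 genes in the deposited tables. They were listed by name as endothelial markers and angiogenic factors, with earlier results of these data known, and were found by matching the gene identifiers to symbols of GENCODE mouse release 21. Of the 38, 37 passed the filter on low counts, which kept 19213 genes in all, and Prox1 did not pass. All libraries came from wild-type (WT) mice. The epididymis was divided into segments 1, 2 and 3, and each segment was sampled from non-ligated control organs and from organs whose efferent ducts, which carry fluid and sperm from the testis, had been tied off with suture just before they enter the caput. Each of the 6 groups had 2 libraries, each library was a pool of 2 mice, and each of the 2 sequencing batches, 3017 and 3097, held 1 library of every group. The sources used here do not give the strain, the age, the time after ligation, or whether the segments of a pool shared mice. The p-values therefore measure the spread between these pools. Levels are counts divided by the scaled library total and given in the usual unit CPM, and paired values of a group are given for batch 3017 and then for batch 3097.

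Blood vessels are lined by endothelial cells, which depend on the growth factor VEGF-A made by neighbouring cells. VEGF-A binds the receptors KDR and FLT1 with the co-receptor NRP1, and its signal promotes vessel growth, permeability and the fenestrated state, in which small pores closed by diaphragms of the protein PLVAP cross the capillary wall. Segment 1 of the mouse epididymis, the initial segment, is known for a dense capillary network around its duct and for its dependence on factors that arrive in testicular fluid.

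Library totals ranged from 30.5 to 42.3 M counts, so that 3 counts were worth 0.0700 to 0.103 CPM. The libraries of every group differed by more than sampling noise, and chi-square divided by its degrees of freedom was 22.6 to 115.5. A check list of 6 genes of the segment 1 epithelium summed to 25500 and 27400 CPM in control segment 1 and to 191 and 223 CPM in ligated segment 1. In control segment 2 the same sum was 8560 CPM in batch 3017 and 1730 CPM in batch 3097, so these 2 libraries stood apart from each other. The general endothelial markers Pecam1, Cdh5, Tie1, Erg, Esam and Ptprb were detected in all 12 libraries. Of the lymphatic markers, Prox1 and Lyve1 lay near the level of 3 counts and Ccl21a was listed at 0 in every group.

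In control tissue the set was highest in segment 1. Between control segments 2 and 1, 31 of 37 tested members (83.8%) differed at an adjusted p under 0.05 in edgeR's quasi-likelihood test, against 43.2% of all genes tested. Of these, 28 were lower in segment 2, against 21.1% of all genes, and 3 were higher, against 22.1%. Between control segments 3 and 1, 30 of 37 members (81.1%) differed, against 51.2% of all genes. Of these, 29 were lower in segment 3, against 25% of all genes, and 1 was higher, against 26.2%. The median log2 fold change of the members was -1.54 for segment 2 and -1.55 for segment 3, beside medians of 0.04 and 0.05 over all genes. In bulk tissue, fewer endothelial cells and less RNA per cell cannot be told apart, here and in every result that follows. Nor do these data give the cell type that a transcript came from. Both comparisons share the control segment 1 libraries.

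The VEGF receptor Kdr, the receptor through which VEGF-A mainly signals, stood at 23.8 and 25.7 CPM in control segment 1, at 1.86 and 1.09 CPM in control segment 2, and at 1.53 and 1.40 CPM in control segment 3. The groups did not overlap, and Kdr was lower by a log2 fold change of -4.09 ± 0.51 (SE) in segment 2 (adjusted p = 0.00066) and of -4.08 ± 0.51 in segment 3 (adjusted p = 0.00042). Flt1, a receptor for VEGF-A and for placental growth factor, followed with 23.3 and 20.1 CPM in control segment 1 against 3.89 and 2.83 CPM in control segment 2 and 3.66 and 2.76 CPM in control segment 3. Esm1, a secreted proteoglycan of endothelial tip cells, had the steepest difference of the set. It was at 6.46 and 8.61 CPM in control segment 1, at 0.378 and 0.0965 CPM in control segment 2, and at 0.0851 and 0.105 CPM in control segment 3. Control segment 3 thus held 4 counts or fewer of Esm1 per library, and the fitted log2 fold change of -6.25 there depends on such low counts. Plvap, the diaphragm protein of fenestrae, was at 19.9 and 15.7 CPM in control segment 1, with segments 2 and 3 at 7.71% and 5.97% of that mean. Rgcc, a regulator of the cell cycle found in capillary endothelium, was at 11.1% and 5.68%.

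General endothelial genes were lower in control segments 2 and 3 by less. Pecam1, an adhesion molecule of endothelial junctions, was at 28.0% and 29.3% of its control segment 1 mean, and Cdh5, the cadherin of those junctions, at 31.2% and 36.9%. For Kdr the same percentages were 5.97% and 5.92%. Vegfa itself was at 54.5% in segment 2 and 38.1% in segment 3. Its value in segment 2 did not keep its call when either control segment 2 library, or the control segment 1 library of batch 3097, was left out, with adjusted p up to 0.076. Pdpn, at 34.2 and 16.8 CPM in control segment 2, moved with the segment 1 check list there: both were higher in batch 3017, and the part of that difference between libraries in the result was not tested. Pgf, the gene of placental growth factor, was the 1 member called higher in both segments, with a log2 fold change of 1.66 ± 0.34 in segment 2 (adjusted p = 0.0082) and of 2.20 ± 0.34 in segment 3 (adjusted p = 0.002). Vegfb (0.57, adjusted p = 0.0062) and Egfl7 (0.81, adjusted p = 0.017) were higher in segment 2. In segment 2 the calls of Pgf, Vegfb and Egfl7 were lost without the control segment 2 library of batch 3097, with adjusted p up to 0.061, 0.066 and 0.18. Pgf also lost it without either control segment 1 library, as did Pdpn (adjusted p up to 0.056), and Egfl7 without that of batch 3017. Between control segments 3 and 2, 0 of 37 members were called by edgeR, against 1.79% of all genes. At an unadjusted p under 0.05 there were 2, and DESeq2 called 1, beside 1587 of all 19213 genes, which is a larger share.

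**Figure D1:**
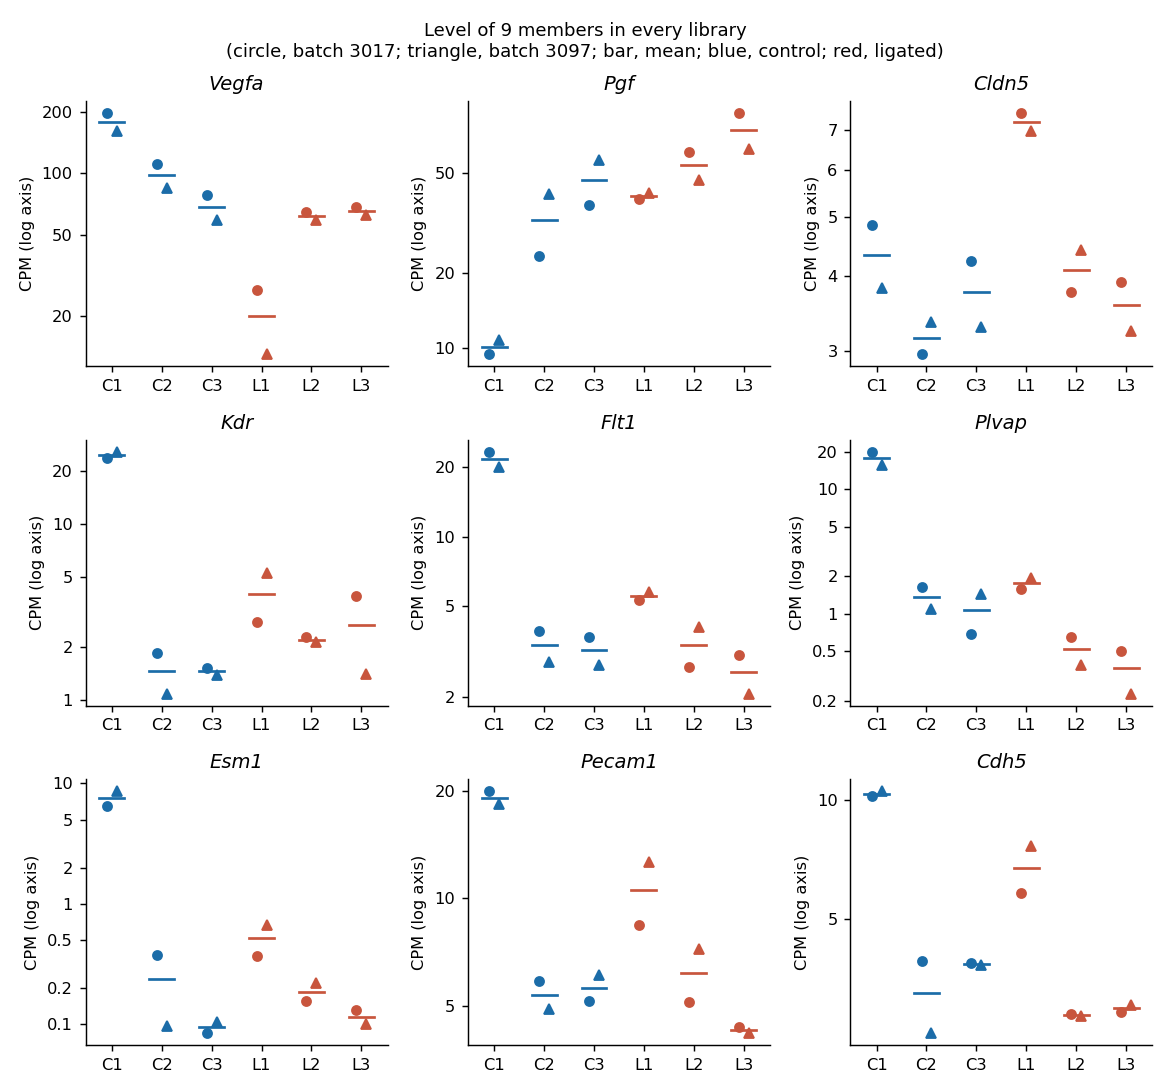
Level in CPM (log axis) of 9 members in each of the 12 libraries, by group: control (C, blue) and ligated (L, red) segments 1 to 3, circles for batch 3017, triangles for batch 3097 and bars for the mean of 2 libraries. Control segment 1 stands above the other groups for Kdr, Flt1, Plvap, Esm1, Pecam1 and Cdh5, Vegfa is lowest in ligated segment 1 (26.8 and 12.9 CPM), and Pgf and Cldn5 are higher in ligated than in control segment 1.

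After ligation most of the set was lower in segment 1. Of 37 tested members, 22 (59.5%) were called between ligated and control segment 1, against 48.7% of all genes tested. They comprised 19 that fell, against 24.4% of all genes, and 3 that rose, against 24.4% of all genes. The median log2 fold change of the 37 members was -0.95, beside 0.03 over all genes. All 22 had the same sign in both batches. In 27 members both ligated libraries lay below both control libraries, as in 34.9% of all genes. In 6 members they lay above, as in 38.1%, and in 4 the groups overlapped, where 73% of all genes did not overlap. Calls for 13 of the 22 held whichever library was left out, namely Vegfa, Pgf, Flt1, Kdr, Nrp1, Tie1, Eng, Ehd4, Sox18, Plvap, Rgcc, Esm1 and Pdpn. The count was lowest, at 13, without the ligated segment 1 library of batch 3017. On GRCm38, Vegfa lies at chr17:46016993-46032369, Flt1 at chr5:147561604-147726011, Kdr at chr5:75932827-75978458, Plvap at chr8:71497765-71511752 and Esm1 at chr13:113209659-113218098, and a gene's count covers its exons.

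Among the VEGF family ligands, Vegfa fell and Pgf and Vegfb rose. Vegfa, the main growth factor for blood vessels, was at 198 and 161 CPM in control segment 1 and at 26.8 and 12.9 CPM in ligated segment 1. The ligated libraries held 11.1% of the control mean, far below the lower control library, and the log2 fold change was -3.22 ± 0.21 (9.31-fold lower, adjusted p = 2.8e-05). Pgf, whose product binds FLT1 but not KDR, was at 9.46 and 10.8 CPM in control segment 1 and at 39.2 and 41.6 CPM in ligated segment 1. It rose 4-fold, with a log2 fold change of 2.00 ± 0.34 (adjusted p = 0.0031) and no overlap between the groups. Vegfb, another ligand of FLT1, was at 11.9 and 9.92 CPM in control segment 1 and at 16.3 and 13.7 CPM in ligated segment 1, a rise by a log2 fold change of 0.46 ± 0.13 (adjusted p = 0.014). Its call was lost when any 1 of the 4 segment 1 libraries was left out (adjusted p of 0.05 to 0.084) and without the batch block (adjusted p = 0.067). Vegfc, the ligand of the lymphatic receptor FLT4, was at 1.03 and 1.10 CPM in control segment 1 and at 0.793 and 1.26 CPM in ligated segment 1, and its groups overlapped (log2 fold change -0.07, adjusted p = 0.89). Per kilobase of exon, Vegfa was the highest member in control segment 1 at 41.9 CPM per kb, where Pgf was at 3.48 CPM per kb. In ligated segment 1 Vegfa was at 4.63 CPM per kb and Pgf, then the highest member, at 13.9 CPM per kb.

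The receptors for VEGF-A fell with it. Kdr was at 23.8 and 25.7 CPM in control segment 1 and at 2.78 and 5.26 CPM in ligated segment 1, which left 16.2% of the control mean (log2 fold change -2.61 ± 0.46, adjusted p = 0.0025). The ligated library of batch 3097 was the higher of the pair, and both lay far below control segment 1. Flt1 was at 23.3 and 20.1 CPM in control segment 1 and at 5.29 and 5.76 CPM in ligated segment 1, which left 25.5% (log2 fold change -1.97 ± 0.25, adjusted p = 0.00022). Nrp1, the co-receptor that strengthens binding of VEGF-A to KDR, was at 22.0 and 21.5 CPM in control segment 1 and at 9.19 and 10.9 CPM in ligated segment 1 (log2 fold change -1.11 ± 0.20, adjusted p = 0.0015). Flt1 and Nrp1 were even between their 2 libraries in each group, and neither gene's groups overlapped. Flt4, the receptor for VEGF-C on lymphatic and some fenestrated endothelium, was at 3.18 and 2.53 CPM in control segment 1 and at 1.56 and 1.93 CPM in ligated segment 1, and it missed the threshold at an adjusted p of 0.051. Nrp2, a co-receptor of lymphatic and venous endothelium, overlapped between the groups (5.51 and 5.45 CPM against 4.87 and 7.64 CPM).

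The angiopoietin system, whose ligands ANGPT1 and ANGPT2 act on the receptor TEK to steady or loosen the vessel wall, was represented mainly by its receptors. Tie1, an endothelial receptor that modulates TEK, was at 12.1 and 11.9 CPM in control segment 1 and at 4.71 and 5.68 CPM in ligated segment 1. It fell by 1.22 ± 0.19 on the log2 scale (adjusted p = 0.00074), with no overlap. Tek was at 4.68 and 5.45 CPM in control segment 1 and at 3.08 and 3.64 CPM in ligated segment 1 and was not called (adjusted p = 0.064). Angpt1 and Angpt2 were at or under 1.01 CPM in every library. Angpt2 was at 0.5005 and 0.447 CPM in control segment 1 and at 0.140 in both ligated libraries, from 5 to 20 counts per library, and was not called (adjusted p = 0.053). Of the apelin system, a further tip cell signal, Aplnr was at 2.33 and 2.23 CPM in control and 1.35 and 1.65 CPM in ligated segment 1, and Apln was under 0.5 CPM throughout. Neither was called.

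Of 12 general endothelial genes for surface, junction and enzyme proteins, 8 fell, 1 rose and 3 were not called. Eng, a co-receptor for the TGF-beta family on proliferating endothelium, was at 15.6 and 13.0 CPM in control segment 1 and at 4.83 and 4.92 CPM in ligated segment 1. Its log2 fold change of -1.54 ± 0.20 (adjusted p = 0.00027) was the steepest of these 12, and the Fpgs gene overlaps it on the opposite strand, so its counts are uncertain where strand was not used. Ehd4, a protein of membrane recycling, was at 69.7 and 69.0 CPM in control segment 1 and at 31.8 and 36.9 CPM in ligated segment 1 (log2 fold change -1.01 ± 0.16, adjusted p = 0.001). Both genes were even within groups and kept their calls whichever library was left out.

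The other 6 of these that fell did so less firmly. Pecam1 was at 19.97 and 18.4 CPM in control segment 1 and at 8.44 and 12.6 CPM in ligated segment 1 (log2 fold change -0.88 ± 0.21, adjusted p = 0.0062). Cdh5 was at 10.3 and 10.5 CPM in control segment 1 and at 5.83 and 7.67 CPM in ligated segment 1 (log2 fold change -0.63 ± 0.21, adjusted p = 0.034). In both genes the ligated library of batch 3097 was the higher of the pair, and the groups did not overlap. Ptprb, the endothelial phosphatase that acts on TEK and Cdh5, was at 20.3 and 22.0 CPM in control and 7.74 and 12.2 CPM in ligated segment 1 (log2 fold change -1.09, adjusted p = 0.011). Robo4, an endothelial guidance receptor, was at 4.73 and 4.59 CPM in control and 1.75 and 2.46 CPM in ligated segment 1 (log2 fold change -1.15, adjusted p = 0.0097). Adgrl4, an adhesion receptor of endothelium, was at 5.58 and 6.52 CPM in control and 2.47 and 3.64 CPM in ligated segment 1 (log2 fold change -0.999, adjusted p = 0.015). For these genes too, neither ligated library reached the lower control library. Nos3, endothelial nitric oxide synthase, was at 3.20 and 3.13 CPM in control and 1.73 and 1.54 CPM in ligated segment 1 (log2 fold change -0.95, adjusted p = 0.012), and Atg9b and Gm15587 overlap it on the opposite strand.

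Calls of these 6 depended on single libraries of segment 1. Leaving out the ligated segment 1 library of batch 3017 gave an adjusted p of 0.076 for Pecam1, 0.27 for Cdh5, 0.098 for Ptprb, 0.11 for Robo4, 0.12 for Adgrl4 and 0.053 for Nos3. The log2 fold change was then -0.64 for Pecam1 and -0.39 for Cdh5. Leaving out the control segment 1 library of batch 3017 also ended the calls of Pecam1 (0.064), Cdh5 (0.11), Robo4 (0.052), Adgrl4 (0.068) and Nos3 (0.067), in adjusted p. Leaving out the control segment 1 library of batch 3097 gave an adjusted p of 0.15 for Cdh5, 0.063 for Ptprb, 0.051 for Robo4, 0.072 for Adgrl4 and 0.061 for Nos3, and without the ligated segment 1 library of batch 3097 it was 0.082 for Nos3. Cdh5 also missed the threshold without either ligated segment 2 library (0.052 and 0.053) or the ligated segment 3 library of batch 3097 (0.05).

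Cldn5, the sealing claudin of endothelial tight junctions, went the other way. It was at 4.86 and 3.81 CPM in control segment 1 and at 7.46 and 6.97 CPM in ligated segment 1, above every library of the other 5 groups, which reached at most 4.86 CPM. It rose by a log2 fold change of 0.74 ± 0.20 (adjusted p = 0.013). The call was lost without the control segment 1 library of batch 3097 (adjusted p = 0.11) or either ligated segment 1 library (0.065 and 0.055). Esam, another adhesion molecule of endothelial tight junctions, was at 7.18 and 8.16 CPM in control and 8.51 and 7.89 CPM in ligated segment 1, and its groups overlapped (log2 fold change 0.10, adjusted p = 0.63). Egfl7, a secreted endothelial factor whose exons overlap Agpat2, Gm20532 and 2 microRNA genes, was at 7.66 CPM in both control libraries and at 10.5 and 8.67 CPM in ligated segment 1 and was not called. Vwf, the clotting factor carrier of larger vessels, was at 19.1 and 16.6 CPM in control and 10.8 and 13.3 CPM in ligated segment 1, also not called (adjusted p = 0.14).

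Both endothelial transcription factors were lower in ligated segment 1, and 1 of them passed the test. Sox18 was at 5.06 and 4.32 CPM in control and at 2.05 and 1.79 CPM in ligated segment 1 (log2 fold change -1.28 ± 0.26, adjusted p = 0.0028), with no overlap. Erg, an ETS factor that maintains endothelial identity, was at 2.28 and 2.86 CPM in control and at 1.28 and 1.85 CPM in ligated segment 1 and missed the threshold (log2 fold change -0.72, adjusted p = 0.053).

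The fenestrated and capillary markers fell, all 3 of them. Plvap was at 19.9 and 15.7 CPM in control segment 1 and at 1.59 and 1.93 CPM in ligated segment 1, which left 9.87% of the control mean. The log2 fold change was -3.33 ± 0.39 (10.1-fold lower, adjusted p = 0.00016), and per kilobase of exon Plvap moved from the 4th to the 16th place among the members. Rgcc was at 5.26 and 4.94 CPM in control segment 1 and at 1.10 and 1.06 CPM in ligated segment 1 (log2 fold change -2.24 ± 0.38, adjusted p = 0.0011). Both genes were close between batches, and their groups stood well apart. Emcn, a sialomucin of capillary and venous endothelium, was at 6.83 and 8.73 CPM in control and at 2.38 and 4.42 CPM in ligated segment 1 (log2 fold change -1.22 ± 0.34, adjusted p = 0.015). Its call was lost without the ligated segment 1 library of batch 3017 (log2 fold change -0.90, adjusted p = 0.14) and without either control segment 1 library (adjusted p of 0.06 and 0.078).

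Arterial and tip cell markers were split. Esm1 was at 6.46 and 8.61 CPM in control segment 1 and at 0.373 and 0.672 CPM in ligated segment 1, 258 and 289 counts against 16 and 24. It kept 6.93% of the control mean, the least of the set (log2 fold change -3.86 ± 0.43, 14.5-fold lower, adjusted p = 1e-04). Sox17, a transcription factor of arterial endothelium, was at 2.60 and 2.83 CPM in control and at 3.01 and 3.92 CPM in ligated segment 1, where both libraries were higher but the test was not passed (log2 fold change 0.34, adjusted p = 0.3). Dll4, a Notch ligand of arterial and tip cells, was at 3.53 and 3.54 CPM in control and at 2.33 and 2.74 CPM in ligated segment 1 and was not called either (adjusted p = 0.13).

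Lymphatic markers gave little signal. Pdpn, which marks lymphatic endothelium but is also made by epithelial and stromal cells, was at 70.4 and 78.3 CPM in control segment 1 and at 13.7 and 19.8 CPM in ligated segment 1. It fell by 2.16 ± 0.35 on the log2 scale (adjusted p = 0.0027) with no overlap. The defining lymphatic factor Prox1 was at 0.125 and 0.149 CPM in control and at 0.0700 and 0.224 CPM in ligated segment 1, from 3 to 8 counts per library, and was not tested. Lyve1, a hyaluronan receptor of lymphatic endothelium and some macrophages, was at 0.175 and 0.268 CPM in control and at 0.373 and 0.727 CPM in ligated segment 1. Both ligated libraries were higher, from 16 and 26 counts, but Lyve1 was not called (adjusted p = 0.053). Per kilobase of exon, control segment 1 held 40.9 CPM per kb of Pdpn beside 0.0759 CPM per kb of Lyve1 and 0.0163 CPM per kb of Prox1, so the counts of Pdpn cannot be assigned to lymphatic vessels from these data.

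**Figure D2:**
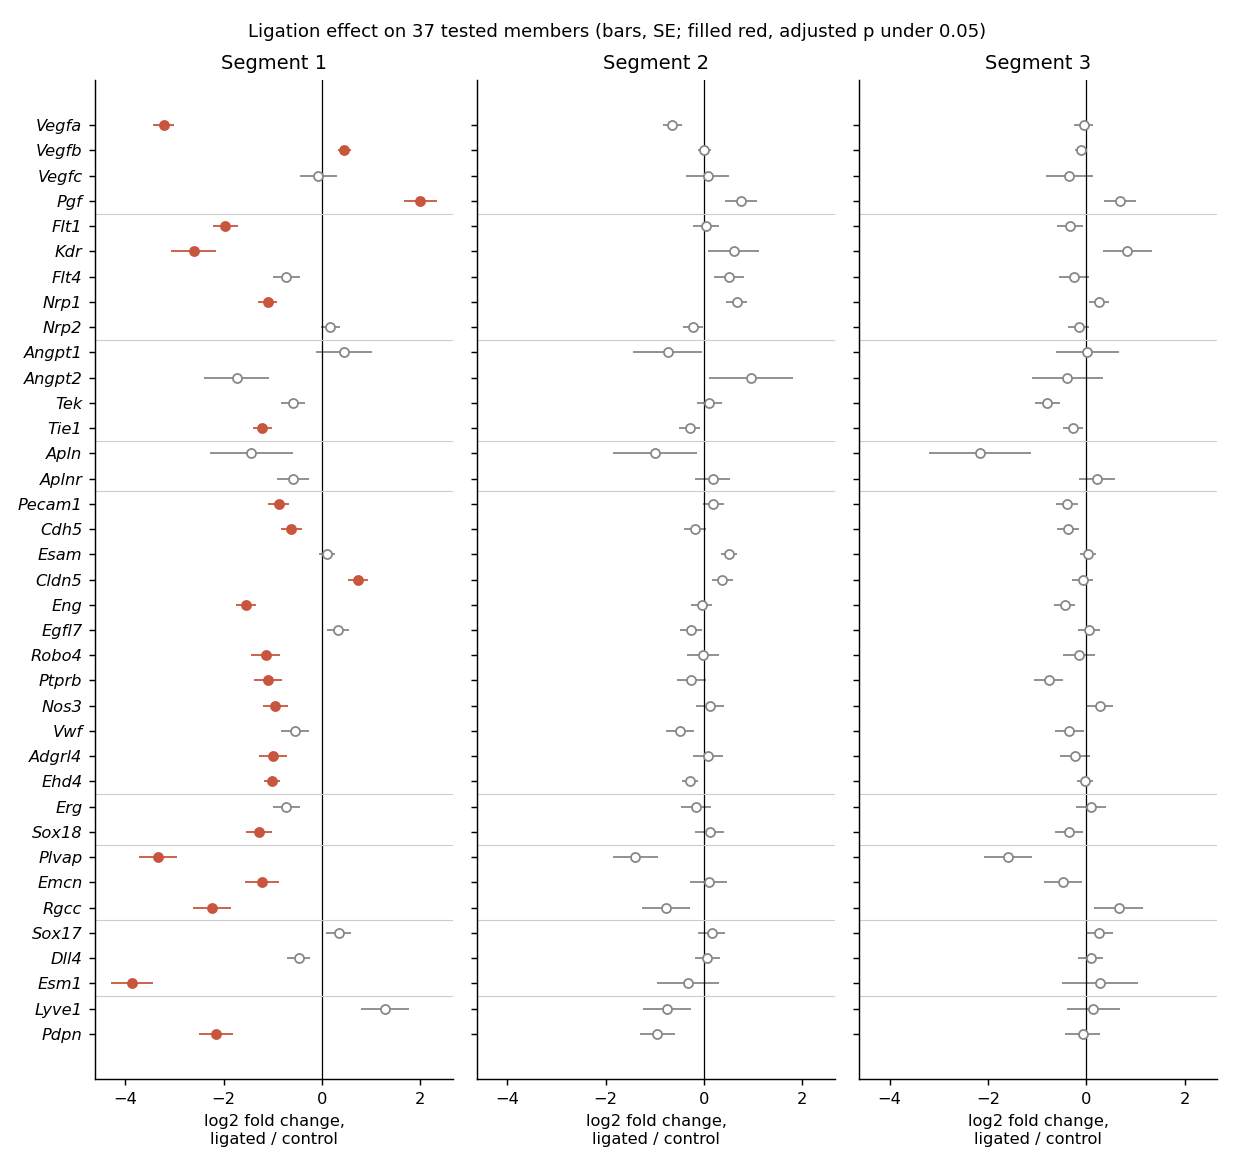
Log2 fold change of ligated against control tissue (x axis) with its standard error for the 37 tested members (rows, grouped by role), in segments 1, 2 and 3; filled red points were called at an adjusted p under 0.05. Segment 1 holds all 22 calls, from -3.86 for Esm1 to 2.00 for Pgf, and segments 2 and 3 hold none.

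The promoters of 4 members that fell in segment 1 and of 1 that rose are printed as examples, chosen after their values were seen. They are not the 5 largest changes. They are RefSeq windows on GRCm38.p6 of 300 bases, from 250 before to 50 after the gene's start, read 5′ to 3′ on the gene's strand. Capitals mark matches to AGGAAG or CGGAAG, core letters bound by ETS factors such as ERG, on either strand (where a match on the other strand reads CTTCCT or CTTCCG). Esm1 (chr13:113209409-113209708, plus strand), Kdr (chr5:75978406-75978705, minus strand), Flt1 (chr5:147725962-147726261, minus strand) and Rgcc (chr14:79301586-79301885, minus strand) fell, and Cldn5 (chr16:18776597-18776896, plus strand) rose.
Esm1: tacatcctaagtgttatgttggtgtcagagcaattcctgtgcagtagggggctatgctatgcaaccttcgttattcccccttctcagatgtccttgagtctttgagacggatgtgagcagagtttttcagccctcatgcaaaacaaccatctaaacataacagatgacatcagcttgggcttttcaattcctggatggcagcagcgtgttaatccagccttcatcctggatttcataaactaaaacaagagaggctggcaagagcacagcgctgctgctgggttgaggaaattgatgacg
Kdr: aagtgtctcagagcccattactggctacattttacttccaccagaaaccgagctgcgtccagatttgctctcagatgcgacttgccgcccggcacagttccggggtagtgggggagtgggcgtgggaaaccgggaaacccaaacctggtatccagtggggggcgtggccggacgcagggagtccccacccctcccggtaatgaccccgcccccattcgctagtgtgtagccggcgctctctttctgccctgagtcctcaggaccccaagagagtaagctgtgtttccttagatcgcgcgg
Flt1: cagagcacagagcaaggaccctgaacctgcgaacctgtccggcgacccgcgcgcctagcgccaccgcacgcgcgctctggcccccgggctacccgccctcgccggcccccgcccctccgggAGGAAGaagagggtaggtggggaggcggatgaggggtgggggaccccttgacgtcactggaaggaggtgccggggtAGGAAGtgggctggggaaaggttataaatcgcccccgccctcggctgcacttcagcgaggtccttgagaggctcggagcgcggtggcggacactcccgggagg
Rgcc: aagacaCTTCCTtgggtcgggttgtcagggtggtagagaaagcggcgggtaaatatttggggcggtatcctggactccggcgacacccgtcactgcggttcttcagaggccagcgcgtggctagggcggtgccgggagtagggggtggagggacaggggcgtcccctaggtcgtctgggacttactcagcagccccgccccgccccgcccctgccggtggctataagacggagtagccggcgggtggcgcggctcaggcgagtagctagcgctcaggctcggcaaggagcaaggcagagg
Cldn5: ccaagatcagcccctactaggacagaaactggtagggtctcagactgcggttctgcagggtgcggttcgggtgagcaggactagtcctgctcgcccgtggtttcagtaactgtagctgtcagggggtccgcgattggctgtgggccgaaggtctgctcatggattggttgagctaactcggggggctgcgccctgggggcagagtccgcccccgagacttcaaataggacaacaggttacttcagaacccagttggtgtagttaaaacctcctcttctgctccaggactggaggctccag
The Flt1 window held 2 matches, the Rgcc window 1, and those of Esm1, Kdr and Cldn5 held 0. Of 32 windows of members, 13 (40.6%) had a match, beside 46.5% of all 32851 windows. Counted by gene, 12 of 25 members with an entry (48.0%) had a match in at least 1 window. A match of 6 letters is thus as common elsewhere, and a window without one says only that these letters are not in it.

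Each member was set against the geometric mean of 6 general endothelial markers, Pecam1, Cdh5, Tie1, Erg, Esam and Ptprb. That mean was 9.68 and 10.3 CPM in control segment 1 and 5.19 and 6.79 CPM in ligated segment 1. The ratio is a description without a test, and 4 of its 6 genes fell themselves. VEGF-A is made by neighbouring cells, and Pdpn also by epithelial and stromal cells. For Vegfa and Pdpn the ratio thus does not compare an endothelial gene with others. The cell type behind the counts of the other members was not tested. On the log2 scale, the ratio in ligated minus control segment 1 was -2.48 for Vegfa, -2.27 for Plvap, -2.22 for Esm1, -1.79 for Kdr, -1.39 for Pdpn, -1.13 for Flt1, -1.08 for Rgcc and -0.71 for Eng. In all of these both ligated libraries were below both control libraries. The 0.5 CPM added to each member shrinks the values of genes with low levels, so their order depends on it. Without it, a setting added after the values were seen, the difference was -3.15 for Esm1, -2.59 for Plvap, -2.51 for Vegfa, -1.94 for Kdr and -1.49 for Rgcc. Of the members with low counts, Apln went from 0.34 to -1.38 and Angpt2 from 0.14 to -1.01, so no direction is read for either. At the other end, with 0.5 CPM added, the difference was above 1 for Pgf (2.7), Cldn5 (1.43), Lyve1 (1.27), Vegfb (1.19), Egfl7 (1.05) and Sox17 (1.04), with both ligated libraries above both control libraries. Lyve1 had 7 to 26 counts in these 4 libraries. Adgrl4 (-0.15), Nos3 (-0.03) and Flt4 (0.18) lay near 0.

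**Figure D3:**
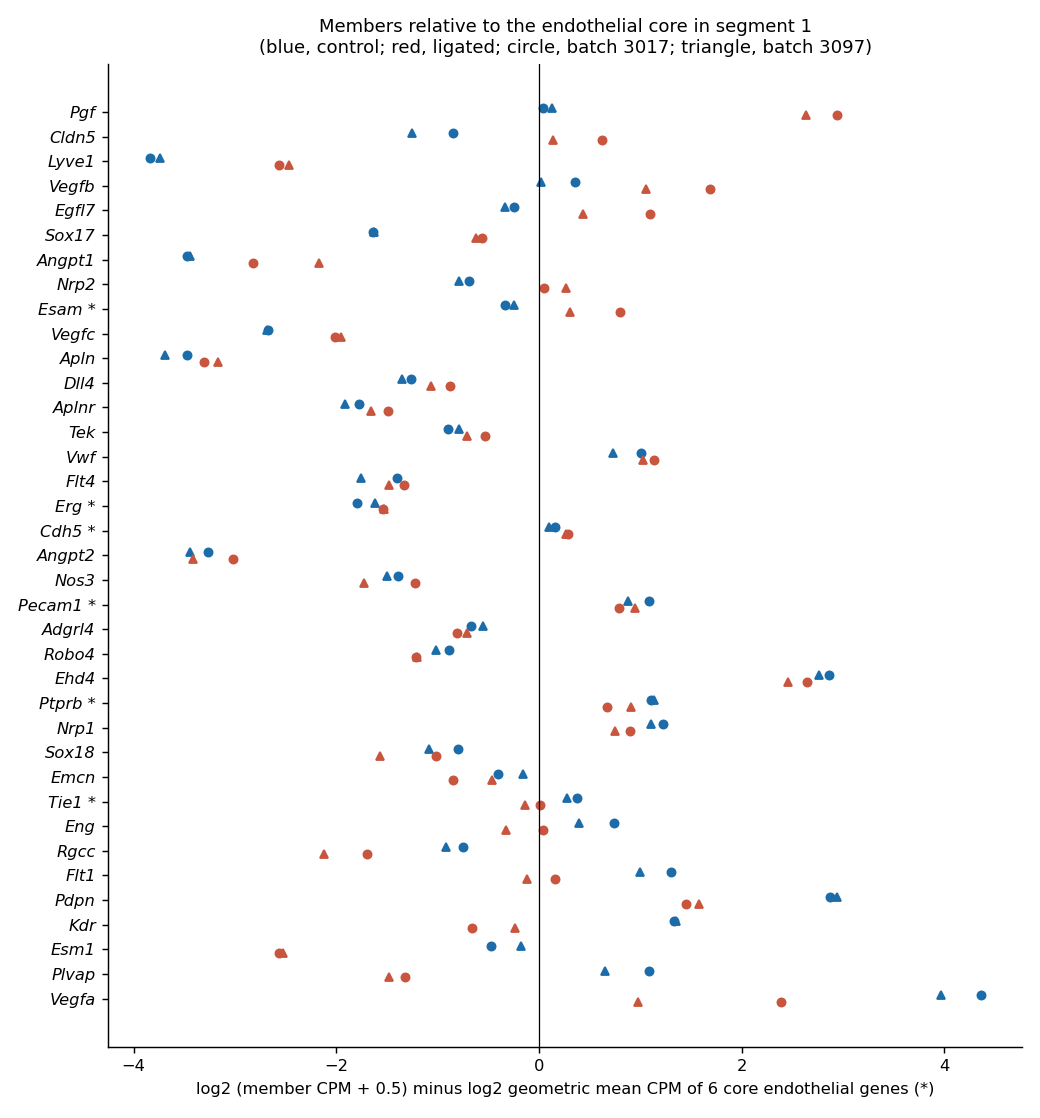
Log2 ratio of each member (CPM plus 0.5) to the geometric mean of 6 general endothelial genes (x axis; those 6 are starred) in each segment 1 library, control in blue and ligated in red, circles for batch 3017 and triangles for batch 3097. The ligated libraries lie to the left for Vegfa, Plvap, Esm1 and Kdr and to the right for Pgf, Cldn5 and Vegfb.

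Ligated segment 1 was also set against control segments 2 and 3, a comparison of tissues that differ in place as well as treatment and that was added after values had been seen. Against control segment 2, 10 of 37 members (27%) were called, beside 13.2% of all genes, and 9 of them were higher in ligated segment 1, beside 5.74%, and 1 lower, beside 7.48%. Against control segment 3, 11 of 37 (29.7%) were called, beside 9.4% of all genes, and 10 were higher, beside 4.62%, and 1 lower, beside 4.78%. Cdh5, Cldn5, Esam, Pecam1, Sox17 and Tie1 were higher in both comparisons. Cldn5 had the largest of these values against segment 2 (log2 fold change 1.19, adjusted p = 0.0077) and Sox17 against segment 3 (1.21, adjusted p = 0.024). Vegfa was the 1 member called lower in both, at a log2 fold change of -2.34 ± 0.21 against segment 2 (adjusted p = 0.00098) and of -1.82 ± 0.20 against segment 3 (adjusted p = 0.0028). Vegfa kept both calls whichever library was left out, and no other call did so in either comparison. Against segment 2 the count of members fell without either ligated segment 1 library or without the control segment 2 library of batch 3097. The share called over all genes fell without either ligated segment 1 library and rose without that control library. Against segment 3 the count of members fell without any 1 library of control segment 3, ligated segment 1 or control segment 1. It rose without either control segment 2 library, although control segment 2 is not part of that comparison. The share called over all genes moved the same way in each of these runs against segment 3.

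The 5 genes lowest in ligated relative to control segment 1 thus stood in different places among the control segments. Vegfa, at 11.1% of its control segment 1 mean, lay below control segment 2 (54.5%) and control segment 3 (38.1%). Kdr, at 16.2%, lay above both (5.97% and 5.92%), but was not called against either (adjusted p of 0.097 and 0.11). Plvap, at 9.87%, was near 7.71% and 5.97% and not called. Esm1, at 6.93%, was above 3.15% and 1.26% and was called higher against control segment 3 alone (log2 fold change 2.39, adjusted p = 0.041). Rgcc, at 21.2%, was likewise higher against control segment 3 (1.91, adjusted p = 0.033). Pgf, at 400% of its control segment 1 mean, lay between control segment 2 (319%) and control segment 3 (462%) and overlapped both.

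**Figure D4:**
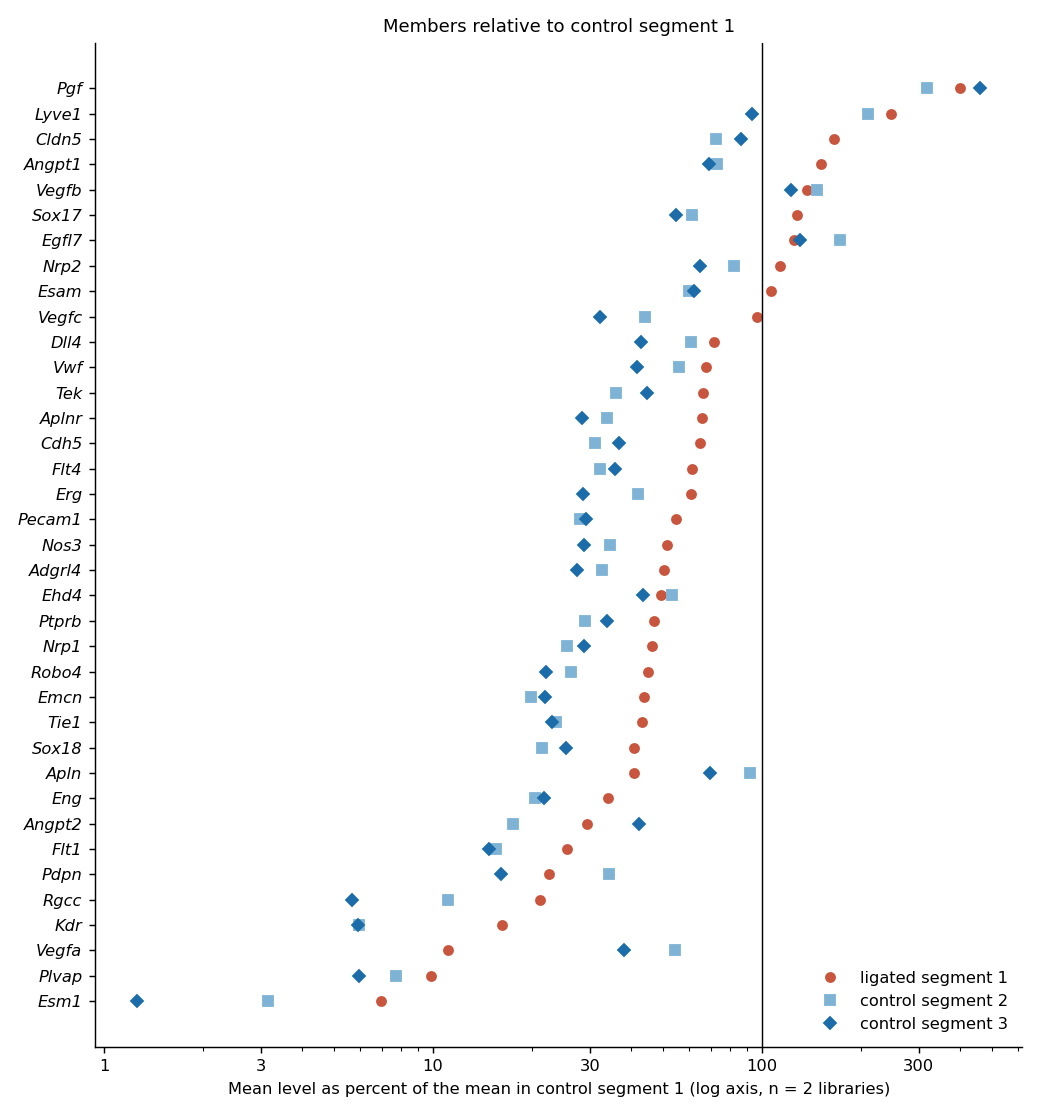
Mean level of each tested member (2 libraries) as percent of its mean in control segment 1 (log axis) in ligated segment 1 (red circles), control segment 2 (light blue squares) and control segment 3 (dark blue diamonds). For most members the red circle lies to the right of the blue symbols, while Vegfa (11.1% against 54.5% and 38.1%) lies to their left.

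In segments 2 and 3 edgeR called 0 of 37 members after ligation, against 9.86% of all genes in segment 2 and 1.72% in segment 3. At an unadjusted p under 0.05 there were 5 members in segment 2 and 3 in segment 3, and the share of all genes at that level was not counted. DESeq2 called 4 and 1 members, beside 2562 and 649 of all 19213 genes, which are larger shares. The median log2 fold change of the members was 0.01 in segment 2 and -0.11 in segment 3. Vegfa in segment 2 was at 111 and 84.3 CPM in control and at 64.5 and 58.9 CPM in ligated tissue, without overlap, and had a log2 fold change of -0.65 ± 0.20 (adjusted p = 0.078 by edgeR and 0.011 by DESeq2). Plvap in segment 2 was at 1.65 and 1.09 CPM in control and at 0.648 and 0.389 CPM in ligated tissue (log2 fold change -1.40, adjusted p = 0.085 by edgeR and 0.029 by DESeq2). In segment 3 Plvap was at 0.681 and 1.45 CPM in control and at 0.498 and 0.228 CPM in ligated tissue (log2 fold change -1.59, adjusted p = 0.17 by edgeR and 0.047 by DESeq2). Ligated libraries were the lower ones for Plvap in both segments, and the libraries did not overlap. Pgf and Pdpn were the other members that DESeq2 called in segment 2, at log2 values of 0.75 (adjusted p = 0.049) and -0.96 (adjusted p = 0.017). Vegfa and Pdpn were higher in the control segment 2 library of batch 3017, the library with the larger sum of the segment 1 check list, and that library's part in these values was not tested. Without it edgeR again called 0 members in segment 2. Without the other control segment 2 library it called Vwf, Ehd4 and Pdpn, so the calls rest on the control segment 2 libraries. With either of these 2 libraries left out, the share called was larger over all genes than over the members.

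The difference between segments was tested directly as the ligation effect in segment 2 or 3 minus that in segment 1. For segment 2, 9 of 37 members (24.3%) had a called difference, beside 18.5% of all genes, and in all 9 the effect was higher in segment 2 than in segment 1, beside 8.2%. They were Vegfa, Flt1, Kdr, Nrp1, Tie1, Pecam1, Eng, Sox18 and Esm1. For segment 3, 12 of 37 (32.4%) were called, beside 30.7% of all genes, 11 of them higher, beside 14.7%, and 1, Vegfb, lower, beside 16.1%. Between segments 3 and 2, 0 members and 0% of all genes were called by edgeR. Plvap did not have a called difference, and its value was below 0 in all 3 segments. Counts rested on single libraries here too, and the share called over all genes moved the same way in each run named next. For segment 2 they were 4 without the ligated segment 2 library of batch 3097, 5 without the control segment 1 library of batch 3097 and 16 without the control segment 2 library of batch 3017. For segment 3 they were 6 without the ligated segment 1 library of batch 3017, and 7 without either control segment 1 library or the ligated segment 3 library of batch 3017. Vegfa, Flt1 and Nrp1 kept their calls in both whichever library was left out, as did Eng for segment 2 and Kdr for segment 3.

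Other genes of the same systems, from lists of related markers, were read beside the members for ligated against control segment 1. Over all genes tested, 24.4% rose, 24.4% fell and 48.7% were called. The share called was 40.9% for other endothelial genes, 72.7% for capillary, 46.2% for arterial, 50% for venous, 57.1% for lymphatic and 33.3% for mural genes. It was 45.2% for angiogenic factors and 58.8% for hypoxia response genes. Of 22 other endothelial genes, 8 fell and 1 rose, with a median of -0.54. Cd34 (-2.67 ± 0.66) and Bcl6b (-1.72 ± 0.29) were the lowest, and Ace, a peptidase that epididymal epithelium also makes, rose by 2.18 ± 0.29. Cd34 was at 154 and 145 CPM in control segment 1 and at 131 and 31.1 CPM in control segment 2. The control segment 2 library with more Cd34 also had the larger sum of the segment 1 check list (8560 against 1730 CPM). Pecam1 was at 5.85 and 4.89 CPM in control segment 2. The cell type behind the counts of Cd34 was not tested. Of 11 other capillary genes tested, 3 fell and 5 rose. Cd300lg, a receptor of capillary endothelium, fell from 3.60 and 4.41 CPM to 0.233 and 0.364 CPM (log2 fold change -3.75 ± 0.37, adjusted p = 6.3e-05). Gpihbp1, which holds lipoprotein lipase on the capillary wall, fell from 2.73 and 1.76 CPM to 0.373 and 0.420 CPM (-2.47 ± 0.58, adjusted p = 0.0065). Both genes were also at or under 0.413 CPM in control segments 2 and 3. Kcne3 (4.34) and Tmem100 (1.03) were the highest of the capillary list.

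Of 13 other arterial genes, 4 rose and 2 fell, with a median of 0.71. Sema3g, a semaphorin of arterial endothelium, rose by 1.75 ± 0.39 and the arterial connexin Gja4 by 1.05 ± 0.26, while the Notch target Hey2 fell by 1.92 ± 0.23 and the connexin Gja5 by 1.46 ± 0.34. In segment 2, Sema3g (1.93, adjusted p = 0.031), Gja4 (1.34, adjusted p = 0.015) and Efnb2 (0.62, adjusted p = 0.015) were higher and Hey2 (-1.08, adjusted p = 0.022) lower after ligation. Of 6 venous genes, 3 rose (Lrg1, Nr2f2 and Icam1) and 0 fell. The lymphatic list had 3 of 7 that rose, led by Thy1 (1.25) and Itga2b (1.03), and 1 that fell, Sema3d, at 90.5 and 88.5 CPM in control and 0.163 and 0.476 CPM in ligated segment 1 (-8.24 ± 1.28). Of 12 mural cell genes, 3 rose, led by Notch3 (2.02 ± 0.16), and 1 fell, the pericyte gene Rgs5 (-1.55 ± 0.20).

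Of 31 other angiogenic and anti-angiogenic factors, 10 rose and 4 fell. Edn1, a vasoconstrictor peptide, rose by 3.07 ± 0.63 and Sema3f, a semaphorin that binds NRP2, by 2.32 ± 0.46, while Sema3b fell by 2.84 ± 0.16 and Slit2 by 2.64 ± 0.47. Of 17 hypoxia response genes, 7 rose and 3 fell, with a median of 0.13. Egln3, an oxygen-dependent hydroxylase, fell by 4.38 ± 0.70 and Epas1, the HIF subunit rich in endothelium, by 0.88 ± 0.13. Hif3a (1.36 ± 0.28) and Ldha (1.08 ± 0.12) rose most of this list. Ndrg1, a further hypoxia response gene, was called in all 3 ligation comparisons, at 0.48 in segment 1, -0.68 in segment 2 and -0.57 in segment 3.

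Markers of other cell types moved in the same libraries. Beside 48.7% of all genes, 90% of fibroblast, 75% of smooth muscle and 36.4% of macrophage genes were called. For epithelial genes it was 50%, for basal cell genes 57.1% and for blood cell genes 28.6%. Of 10 fibroblast genes, 8 rose and 1 fell, Pdgfra (-3.98 ± 0.66). Their summed level was 625 to 637 CPM in control and 230 to 354 CPM in ligated segment 1. Most of the control sum was Pdgfra, at 21064 and 17150 counts beside at most 1562 for any other gene of the list. Of 8 smooth muscle genes, 5 rose and 1 fell, Actg2 (-7.96 ± 0.95). The sum was 3150 to 3200 CPM in control and 455 to 576 CPM in ligated segment 1. Most of the control sum was Actg2, at 114664 and 95862 counts beside at most 4050 for any other gene of the list. Pdgfra and Actg2 were the only called genes of these 2 lists that fell, so the sums follow them and not their lists. The fibroblast genes highest by fold were Dpt (1.91) and Fbln1 (1.87), and those of smooth muscle were Cnn1 (1.02) and Acta2 (0.87). Of 11 macrophage genes, 4 rose, led by Cd68 (3.22) and Cd14 (2.29), and 0 fell, with sums of 126 to 142 CPM in control and 184 to 203 CPM in ligated segment 1. Most of the rise in that sum is Cd68, at 194 and 250 counts in control and 2497 and 1765 in ligated segment 1. The macrophage sum thus does not describe its list as a whole. General epithelial genes (3 rose and 2 fell of 10) summed to 2650 to 2870 CPM in control and 3430 to 3790 CPM in ligated segment 1, and basal cell genes (2 and 2 of 7) to 432 to 446 CPM and 374 to 528 CPM. The rise of the epithelial sum lies in Krt19 and Elf3, and the rest of that list together was level. Elf3 had 4326 and 3645 counts in control and 26993 and 16646 in ligated segment 1. Of 7 blood cell genes, the globins Hba-a1 (-0.88) and Hbb-bs (-0.85) were called lower, although the sums overlapped (15.7 to 21.3 CPM in control and 14.8 to 18.2 CPM in ligated segment 1). Of 2 mesothelial genes tested, Krt19, which epithelium also makes and which is on the epithelial list too, rose. The mesothelial list summed to 59.1 to 77.6 CPM in control and 493 to 531 CPM in ligated segment 1. Nearly all of that sum is Krt19, at 2351 and 2595 counts in control and 22763 and 17588 in ligated segment 1. Each other gene of the list had at most 13 counts per library there, so the sum does not describe mesothelium. All 6 genes of the segment 1 check list fell, and of 6 other caput genes 3 fell and 1 rose. Rnase10 of the first list fell in every segment, at log2 fold changes of -12.58, -9.54 and -6.11 in segments 1, 2 and 3. The part of these shifts in the members' results was not tested.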

How the data were processed

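The 12 libraries were sequenced from polyadenylated RNA with a directional kit from 500 ng of RNA, per the labels' protocols. The authors' deposited values are counts of reads, whole numbers without normalization, in a table for each sequencing batch whose columns name the groups, so a library is named here by its group and batch. Trim Galore 0.6.0, cutadapt, FastQC, STAR 2.7.0e and the build GRCm38 (mm10) are named in the submitters' processing notes. The sources used here do not give the counting tool, its strand setting or its annotation, so overlapping genes are uncertain (Angpt1, Dll4, Egfl7, Eng, Nos3, Nrp1, Prox1, Sox17). All 55536 identifiers matched GENCODE release 21. Counts were filtered with filterByExpr (minimum count 10), scaled by TMM and fitted in edgeR 4.0.16 (R 4.3.3) by quasi-likelihood with group and batch over all 12 libraries, two-sided, with Benjamini-Hochberg adjustment over 19213 genes. A gene was called at an adjusted p under 0.05. Residual degrees of freedom were 5. Tested on simulated data, the fit for segment 1 recovered 65% of 100 genes changed by a log2 of 1 and 85% of 100 changed by 2, among 19213. Every simulated gene had the same relative spread and no batch effect, and far fewer genes changed than were called in the data. These shares are thus a check of the fit and do not measure how many real changes were detected. The sequencing batch, given in the design text, pairs libraries; deviations of same-batch libraries correlated at 0.046 to 0.66 between groups. Alternatives were DESeq2 1.42.0, its size factors, unscaled totals, other filters, no batch block, each library left out, and a fit of 4 libraries only. The members and lists were chosen with earlier results of these data known. Every member is accounted for, and from each list of other genes the 2 highest and 2 lowest called log2 fold changes in segment 1 could be named where the higher group averaged at least 1 CPM. The core ratio adds 0.5 CPM.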

Additional observations from a re-analysis of the deposited data

Results flagged for a closer look

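The ligation effect differed between segments for several members, tested as the effect in 1 segment minus that in segment 1 on the log2 scale with edgeR's adjusted p. For segment 2 the difference was 2.57 for Vegfa (0.0017), 2.00 for Flt1 (0.0058), 3.21 for Kdr (0.017), 1.77 for Nrp1 (0.0039), 0.92 for Tie1 (0.049), 1.07 for Pecam1 (0.035), 1.5 for Eng (0.0086), 1.40 for Sox18 (0.034) and 3.53 for Esm1 (0.013). For segment 3 it was 3.17 for Vegfa (0.00037), -0.57 for Vegfb (0.039), 1.64 for Flt1 (0.008), 3.44 for Kdr (0.0075), 1.37 for Nrp1 (0.0063), 0.95 for Tie1 (0.03), 1.11 for Eng (0.019), 1.22 for Nos3 (0.036), 0.98 for Ehd4 (0.012), 2.90 for Rgcc (0.0072), 4.13 for Esm1 (0.0084) and 2.09 for Pdpn (0.021). Of these 21 values, 20 are positive and belong to genes that fell in segment 1, where their control levels were highest, and the other is that of Vegfb, which rose there. Esm1 in segments 2 and 3 rests on 3 to 11 counts per library. Rgcc in segment 3 rests on 13 and 8 counts in control and 27 and 9 in ligated libraries. Kdr there had 54 and 53 counts in control and 150 and 56 in ligated libraries, which were uneven.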

How the results depend on the processing

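No called value changed sign under any alternative run. For ligated against control segment 1, 13 of 22 calls held under every alternative, and the count of members called ranged from 13 to 26 when 1 library was left out; without the batch block (the replicate block) it was 21. Leaving out 1 library gave 0 to 3 for ligated against control segment 2, 0 to 0 for segment 3, 22 to 31 for control segment 2 against 1, 27 to 31 for control segment 3 against 1, and 0 to 4 for control segment 3 against 2. It gave 2 to 11 for ligated segment 1 against control segment 2 and 1 to 19 against control segment 3. For the difference of the ligation effect it gave 4 to 16 (segment 2 against 1), 6 to 13 (segment 3 against 1) and 0 to 1 (segment 3 against 2). These ranges are of members alone, and the number of all genes called also changed with the library left out. Library totals without scaling gave 2 members in ligated against control segment 2 and 17 in ligated segment 1 against control segment 3, and moved the median of all genes in segment 1 by 0.20 on the log2 scale. DESeq2 gave 4, 1 and 1 members in ligated segments 2 and 3 and in control segment 3 against 2. Of all 19213 genes it called 2562, 649 and 1587 there, larger shares than of the members. Without the replicate block, ligated segment 1 had 6 members called against control segment 2 and 7 against control segment 3. In segment 1, Flt4, Erg, Tek, Vwf, Angpt2 and Lyve1, not called here, passed the threshold under at least 1 alternative. The cause was not tested. With 2 pools a group, small changes may have been missed, and how often was not tested for changes below a log2 of 1. Prox1, Lyve1, Angpt1, Angpt2 and Apln are limited by their counts.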

Other observations

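Set against the 6 general endothelial genes, the control segments differed from each other in Kdr, Plvap and Esm1 and less in Vegfa. The log2 ratio of Vegfa was 4.36 and 3.97 in control segment 1, 4.96 and 4.76 in control segment 2, 4.57 and 4.10 in control segment 3, 4.54 and 3.94 in ligated segment 2, and 4.62 and 4.49 in ligated segment 3. Ligated segment 1 stood apart from these 10 libraries at 2.39 and 0.98. Kdr had a ratio of 1.33 and 1.35 in control segment 1 and between -0.98 and 0.67 in the other 5 groups, ligated segment 1 included (-0.67 and -0.24). Plvap had 1.08 and 0.65 in control segment 1, -1.32 and -1.48 in ligated segment 1 and -0.74 or less in every other library. The ratio of Cldn5 was lowest in control segment 1 (-0.85 and -1.25) and lay between -0.05 and 0.66 in the other 5 groups, with ligated segment 1 at 0.62 and 0.14. These ratios are descriptions without a test.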
